A study of Mus musculus with 3 samples.

Results

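Fos, Jun, Jund and Atf4 are 4 transcription factors of the immediate early and stress responses, and they were taken by gene symbol from the platform annotation. Each was read by 1 probe, so 4 probes of the 22702 features on the array are described here, and each of the 4 had a value on all 3 arrays. Such complete values were held by 3915 genes in all, out of 15096 genes named by a single symbol. RNA came from kidneys of mouse embryos at 15.5 days post coitum (dpc), pooled over both sexes, that carry the HoxB7-GFP transgene, whose promoter drives green fluorescent protein in the ureteric tree, the branching epithelium that becomes the collecting ducts. Cells were separated by flow sorting into a GFP+ and a GFP- fraction, both from transgenic kidneys, and the GFP- fraction holds every other cell type of the organ. Amplified RNA of both fractions was hybridised together on each of 3 arrays of 2 colours, and the deposited value is a log2 ratio, in which -1 means a GFP+ signal of 0.5 times the GFP- signal. The direction, GFP+ over GFP-, is likely from how the samples are titled and which fraction is channel 1, but not settled, because the dyes of the channels are not given in the sources used here. Nothing in those sources gives the time or the enzymes of dissociation, or says whether each array had its own pool of embryos.

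Fos and Jun are the founding members of AP-1, a family of dimeric factors that bind DNA through a basic region and hold together through a leucine zipper (the bZIP fold). Their genes are immediate early genes: transcription starts within minutes of a growth factor, a wound or a stress, through kinases of the MAP kinase pathway and through factors already present in the cell, and stops soon after. Jund is the member of the Jun group that is widely expressed in resting cells. Atf4 is the bZIP factor of the integrated stress response, made from its mRNA when phosphorylation of the initiation factor eIF2 slows general translation, and it raises genes of amino acid supply and of recovery. Enzymatic dissociation of mouse tissues is known to induce Fos, Jun and heat shock genes.

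Promoter sequences are given as background on the 4 genes, and a link between them and the ratios was not tested. The 250 bases before the annotated start were read from RefSeq on build GRCm38.p6 and searched on both strands. The motifs were the CRE (TGACGTCA), its core (TGACG), the AP-1 site (TGACTCA), the wider form found in the Jun promoter (TGACNTCA, which includes the CRE), the C/EBP-ATF element (TGATGNAA), the GC box (GGGCGG), the CCAAT box (CCAAT), the TATA box (TATAAA), the CArG box and the MEF2 site. Capitals mark matches on either strand. Fos lies at chr12:85473640-85473889 on the plus strand, Jun at chr4:95052223-95052472 on the minus strand and Atf4 at chr15:80254934-80255183 on the plus strand.
Fos: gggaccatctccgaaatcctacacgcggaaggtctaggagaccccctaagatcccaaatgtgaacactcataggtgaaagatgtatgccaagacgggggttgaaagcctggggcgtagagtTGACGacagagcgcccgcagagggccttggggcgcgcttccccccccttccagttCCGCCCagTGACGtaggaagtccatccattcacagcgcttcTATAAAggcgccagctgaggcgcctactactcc
Jun: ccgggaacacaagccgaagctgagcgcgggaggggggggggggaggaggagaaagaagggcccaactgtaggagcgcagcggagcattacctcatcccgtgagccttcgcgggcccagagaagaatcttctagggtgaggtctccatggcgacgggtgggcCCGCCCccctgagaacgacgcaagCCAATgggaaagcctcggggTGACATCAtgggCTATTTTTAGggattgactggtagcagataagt
Atf4: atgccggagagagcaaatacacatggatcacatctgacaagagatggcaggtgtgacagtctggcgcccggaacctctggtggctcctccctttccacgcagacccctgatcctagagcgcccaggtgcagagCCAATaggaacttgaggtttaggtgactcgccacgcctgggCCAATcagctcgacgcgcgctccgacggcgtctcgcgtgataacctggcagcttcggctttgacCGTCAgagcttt
The Fos window holds 2 CRE cores, the nearer one ending 62 bases before the start, a GC box and a TATA box. In the Jun window TGACATCA stands 45 to 38 bases before the start, next to a MEF2 site at 33 to 24, and a CCAAT box and a GC box lie farther out. Atf4 has 2 CCAAT boxes and a CRE core. The fourth window, that of Jund at chr8:70697489-70697738, is poorer in G and C (47.6%, against 58.4% for Fos, 61.2% for Jun and 59.2% for Atf4) and holds none of the letters searched. Over 27025 promoter windows of this length, 17.9% hold a CRE core, 7.59% TGACNTCA, 32.9% a GC box, 34.5% a CCAAT box, 13.0% a TATA box and 0.518% a MEF2 site. The full CRE (1.62% of windows), the AP-1 site (4.43%), the C/EBP-ATF element (3.53%) and the CArG box (1.4%) were found in none of the 4 windows. A match is a description of the letters in these windows only. Sites farther than 250 bases before the start were not searched, so no match here does not mean that a gene lacks the site.

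Array 1 stood apart from the other arrays, and this bears on every result here. Over the 3915 genes, Pearson's r was 0.883 between arrays 2 and 3, 0.277 between arrays 1 and 3 and 0.0800 between arrays 1 and 2; these are correlations across genes, which are not independent replicates. The arrays gave values for 5182, 4983 and 6191 features, and the medians of the tested genes lay at -0.04, 0.09 and 0.08. The markers of ureteric epithelium had medians of 1.75, 2.15 and 2.24 on arrays 1, 2 and 3, with 5 of 6 measured genes past the threshold on the higher side (limma with Benjamini-Hochberg adjustment, adjusted p below 0.05). Medians of macrophage and leukocyte markers were -1.95, -1.98 and -2.02, with 6 of 7 lower. Markers of cap mesenchyme, the progenitors of the nephrons, had medians of -1.51, -1.03 and -1.11, with 3 of 6 lower. Those of stroma had -1.90, -1.52 and -1.41, with 4 of 5 lower. Endothelial markers had -0.47, -0.11 and -0.19, with 0 of 8 past the threshold, and erythroid ones -1.08, -1.20 and -1.29, with 2 of 4 lower. The markers of ureteric epithelium, cap mesenchyme, stroma and endothelium thus lay lower on array 1 than on the other arrays in their medians. Of 22 listed ureteric markers, 3 more had values on some arrays. Wnt7b had -0.61 on array 2 alone, while Cdh16 and Esrp1 lay above 0.

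Fos, Jun and Atf4 were close to equal between the fractions on array 1 and had lower signal in GFP+ cells on arrays 2 and 3, while Jund swung further and in the same sense. None of the 4 means passed the test over all genes. Across the tested genes 1.38% passed as higher and 1.4% as lower in GFP+ cells, and 0 of 4 does not stand out from shares of that size. Fos alone was below 0.05 before adjustment. An ordinary one-sample statistic also passed 0 of the 4, before or after adjustment. In bulk fractions, fewer cells with a transcript and less of it per cell cannot be told apart, and, since the labels state that no dye was swapped, a dye effect on 1 probe cannot be told apart from a difference between the cells. The number of arrays limits the precision, and the variation behind the p-values is that among 3 hybridisations, which may be technical only.

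**Figure D1:**
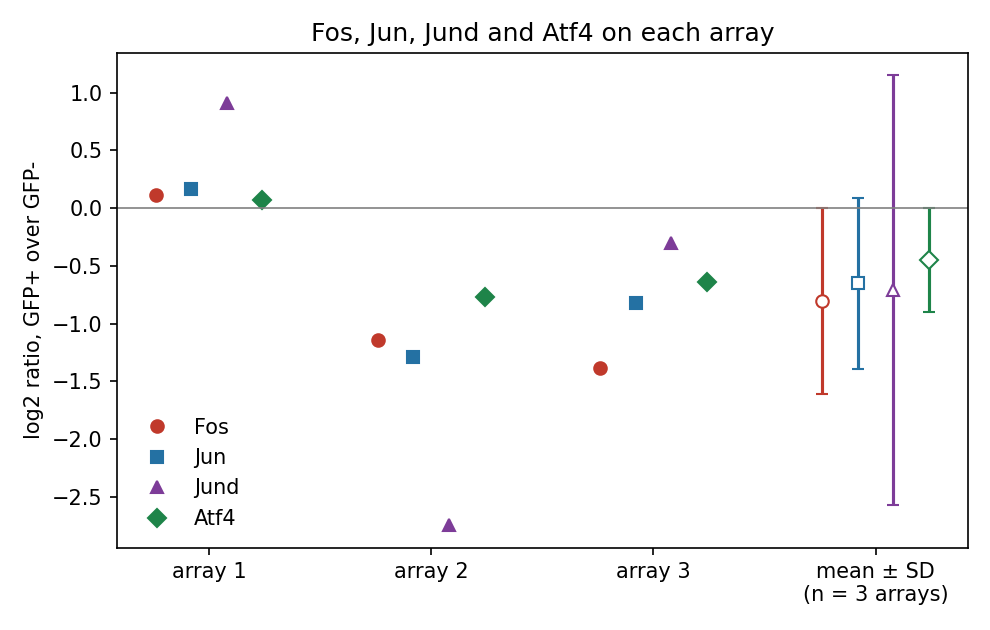
Log2 ratio of GFP+ over GFP- (vertical axis) for Fos, Jun, Jund and Atf4 on each of the 3 arrays, filled symbols, with the mean ± SD over the arrays as open symbols on the right. All 4 genes lie above 0 on array 1 and below 0 on arrays 2 and 3, and Jund spans from 0.91 to -2.75.

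Fos, the AP-1 partner that cannot pair with itself and depends on a Jun protein, had log2 ratios of 0.12, -1.15 and -1.38 on arrays 1, 2 and 3. In linear terms the GFP+ signal was 1.08, 0.452 and 0.383 times the GFP- signal. Array 1 therefore lay just above equality and the other arrays well below it, with array 3 lowest. A ratio as low was held by 4.67% of the tested genes on array 2 and by 0.971% on array 3. The mean was -0.81 ± 0.81 (SD, n = 3 arrays), or 1.75-fold lower, with a 95% interval from -1.56 to -0.05 in limma, not adjusted for the number of genes, and an adjusted p of 0.304.

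Jun, which can bind DNA as a pair with itself or with Fos, had log2 ratios of 0.16, -1.29 and -0.83. Array 1 was again above 0, and arrays 2 and 3 stood at 0.409 and 0.564 times the GFP- signal. Ratios as low were held by 3.40% of genes on array 2 and 3.81% on array 3. Its mean was -0.65 ± 0.74 (n = 3; limma adjusted p = 0.385), with a 95% interval from -1.36 to 0.06. Jun and Fos differed from each other by -0.05, 0.14 and -0.56 on the 3 arrays (Fos minus Jun, mean -0.15 ± 0.36), a difference within its own spread.

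Jund had log2 ratios of 0.91, -2.75 and -0.30, that is 1.88, 0.149 and 0.81 times the GFP- signal. It was higher in GFP+ cells on array 1, where 4.73% of the genes had a ratio as high, and 6.71-fold lower on array 2, where 0.179% had one as low. Array 3 lay between them, and 17.9% of the genes had a ratio as low there. The SD of 1.86 was the second widest of all 3915 tested genes, and the mean of -0.71 had a 95% interval from -2.28 to 0.85 (limma adjusted p = 0.665). Arrays 2 and 3, which otherwise ran together, differed by -2.44 for this probe (array 2 minus array 3). The median size of that difference over all genes was 0.14, and 1 other gene had a larger one. Without array 2 the mean of Jund was 0.30, of opposite sign, so its direction rests on that array.

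Atf4, the factor of the integrated stress response, had the narrowest spread of the 4. Its log2 ratios were 0.07, -0.77 and -0.64, or 1.05, 0.587 and 0.642 times the GFP- signal. Array 1 was near equality and arrays 2 and 3 lay close to each other. Ratios as low were held by 9.32% of genes on array 2 and 6.87% on array 3. The mean was -0.45 ± 0.45 (n = 3; limma adjusted p = 0.417), with a 95% interval from -0.97 to 0.07.

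Ordered by mean log2 ratio from the lowest, the genes ran Fos, Jund, Jun and Atf4, and neighbours in this order did not differ beyond their spread. Fos minus Jund was -0.09 ± 1.47, Jun minus Jund 0.06 ± 1.21 and Jun minus Atf4 -0.20 ± 0.31 (SD over 3 arrays). Fos minus Atf4, the ends of the order, was 0.05, -0.38 and -0.75 on the 3 arrays, with a mean of -0.36 ± 0.40. With 3 arrays the smallest p of a two-sided exact sign permutation test is 0.25, so these 6 differences were not tested.

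For all 4 genes, the difference between array 1 and the other arrays was larger in size than the mean ratio itself. This must hold for any gene with their sign pattern. Over all tested genes the median size was 0.50 for this difference and 0.20 for the mean. Array 1 minus the mean of arrays 2 and 3 was 1.38 for Fos, 1.22 for Jun, 2.44 for Jund and 0.77 for Atf4, against a median of -0.25 over all tested genes and a range of -0.78 to 1.42 between the 5th and 95th percentile. A difference as high was held by 5.62% of genes for Fos, 7.33% for Jun, 0.128% for Jund and 13.8% for Atf4. A ratio above 0 on array 1 and below 0 on both others, the pattern of all 4, was found in 743 genes, or 19% of those tested. The pattern was thus widespread. Since 1 array has no replicate of its own, a difference between arrays could not be tested. After median centring, scaling or quantile normalization, each of the 4 genes stayed above 0 on array 1 and below 0 on arrays 2 and 3.

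**Figure D2:**
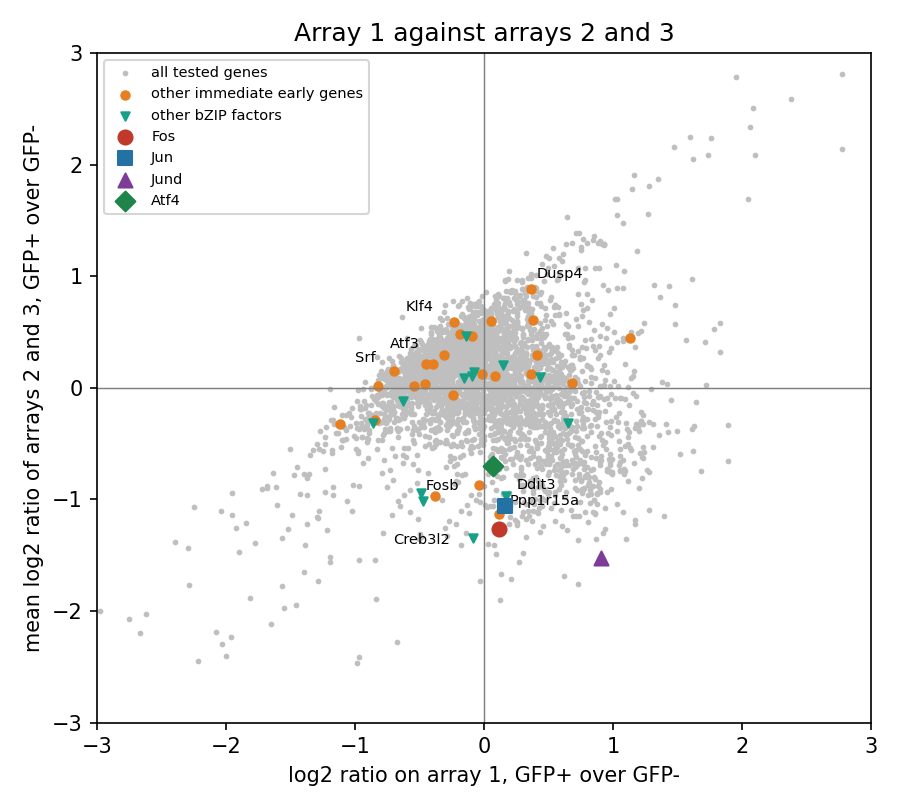
Log2 ratio on array 1 (horizontal axis) against the mean log2 ratio of arrays 2 and 3 (vertical axis), GFP+ over GFP-, for the tested genes in grey, other immediate early genes in orange, other bZIP factors as green triangles and the 4 genes as larger symbols. The 4 genes lie at lower right, with Jund farthest out, while Klf4 and Atf3 lie at upper left; 5 genes fall outside the plotted range.

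SDs over the arrays were 0.81 for Fos, 0.74 for Jun, 1.86 for Jund and 0.45 for Atf4, where the median gene had 0.31 and the 95th percentile was 0.88. A spread as wide was found in 6.46% of genes for Fos, 7.64% for Jun, 0.0511% for Jund and 20.7% for Atf4. Fos, Jun and Atf4 therefore lay inside the upper range of the array set, and Jund at its edge.

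**Figure D3:**
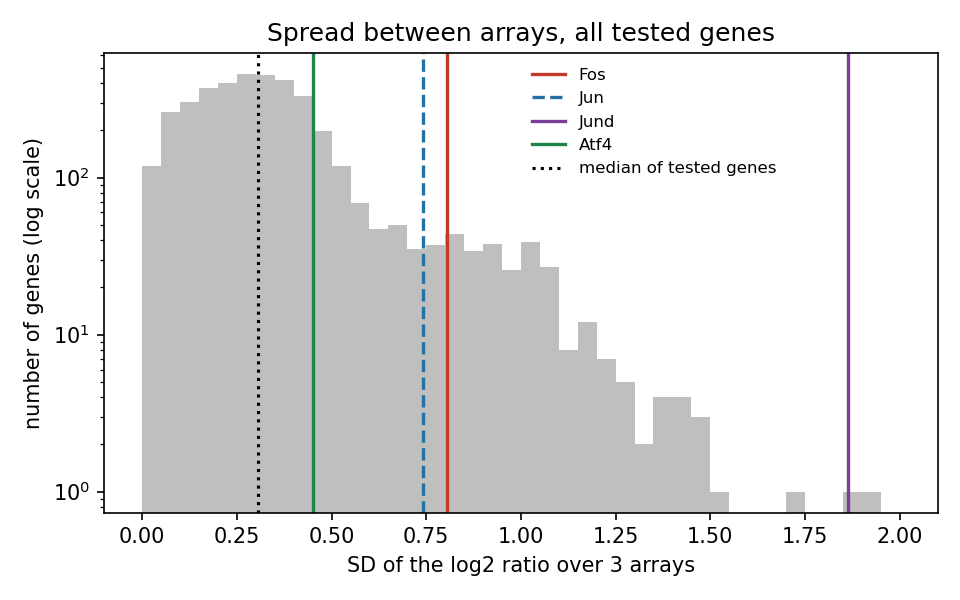
Number of tested genes (vertical log axis) by SD of the log2 ratio over the 3 arrays (horizontal axis), with vertical lines for Fos, Jun, Jund, Atf4 and the median gene. Jund at 1.86 lies at the far right end, and Atf4 at 0.45 is nearest to the median of 0.31.

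Without array 1 the genes had mean log2 ratios of -1.27 for Fos (2.40-fold lower), -1.06 for Jun (2.08-fold), -1.53 for Jund (2.88-fold) and -0.70 for Atf4 (1.63-fold). By limma on arrays 2 and 3 alone, Fos (adjusted p = 0.00131), Jun (0.00413) and Atf4 (0.00485) were then lower in GFP+ cells, and Jund was not called (0.0604). In this setting 27.5% of all genes passed as higher and 18.8% as lower, so 3 calls among 4 genes are read against a high background. The labels do not say how the RNA of arrays 2 and 3 was related, and averaging these arrays into 1 replicate gave a limma adjusted p of 0.999 for each of the 4. With these arrays averaged, 0.741% of all genes passed as higher and 1.46% as lower, so 0 of 4 does not stand out.

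The members of the Fos and Jun families beyond these genes were measured in part. Fosb, a close relative of Fos that is induced with it, had log2 ratios of -0.04, -1.06 and -0.67 (mean -0.59 ± 0.52, limma adjusted p = 0.306). Array 1 was again near 0 and the other arrays lower. Junb, Fosl1 and Fosl2, the remaining AP-1 genes of these families on the array, and Egr1 and Ier2, other standard immediate early genes, had no value on any array.

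Of 54 listed immediate early genes, 52 were on the array and 28 had complete values. None passed in limma in either direction (3 higher and 5 lower at an unadjusted p below 0.05; 2 and 0 by the ordinary statistic, which passed 0 after adjustment). Over all tested genes, 8.45% were higher and 6.41% lower before adjustment in limma, and 7.25% and 4.78% by the ordinary statistic, so 3 and 5 of the 28 are 10.7% and 17.9% beside these limma shares. Their median mean was 0.00, against 0.03 over all tested genes. Besides Fos, Jun and Jund, 1 of the other 25 (4%), Ppp1r15a, had the pattern of a ratio above 0 on array 1 alone, beside 19% of all genes. The opposite pattern, below 0 on array 1 and above 0 on arrays 2 and 3, was held by 9 of the 25 (36%), near the 31% of all genes. Ppp1r15a (GADD34), which directs a phosphatase to eIF2 and so ends the integrated stress response, had log2 ratios of 0.12, -1.58 and -0.68 (mean -0.72 ± 0.85, limma adjusted p = 0.385).

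Other immediate early genes differed among themselves. Srf, the serum response factor that acts on the Fos promoter, had -0.70, 0.33 and -0.03, and its mean was -0.13 ± 0.52. Dusp4, a phosphatase that switches off MAP kinases, was above 0 on every array, at 0.36, 0.97 and 0.79 (mean 0.71 ± 0.31, limma adjusted p = 0.146). Id2, an inhibitor of helix-loop-helix factors, was also above 0 throughout (0.68 ± 0.41), and Socs3, an inhibitor of cytokine signalling, was below 0 throughout (-0.78 ± 0.35, limma adjusted p = 0.133). Atf3 and Klf4, stress-inducible factors chosen after their values were seen, ran against Fos and Jun, with -0.31, 0.45 and 0.15 for Atf3 and -0.23, 0.71 and 0.46 for Klf4. Without array 1, 7 of the 28 were higher and 6 lower, beside the 27.5% and 18.8% of all genes.

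Among 52 listed bZIP factors, 19 had complete values and 0 passed in limma (0 higher and 6 lower at an unadjusted p below 0.05; 1 and 1 by the ordinary statistic). The 6 lower genes are 31.6% of the 19, beside 6.41% of all genes before adjustment, and 5 of them were among the 15 bZIP factors other than Fos, Jun, Jund and Atf4. The median mean of the list was -0.45 with the 4 genes and 0.01 over the 15 others. Because the means of the 4 genes lie at or below the list median, leaving them out could not lower it. Without array 1, 1 of the 19 was higher and 9 were lower, 6 of these among the 15 others, beside 27.5% and 18.8% of all genes. Ddit3 (CHOP), a stress factor whose gene Atf4 induces, had log2 ratios of 0.17, -1.15 and -0.79 (mean -0.59 ± 0.68, limma adjusted p = 0.409), near those of Jun on each array. Creb3l2, a factor released from the endoplasmic reticulum membrane, had -0.09, -1.68 and -1.02 (mean -0.93 ± 0.80), also with array 1 highest. Nfe2l2 (NRF2), the factor of the oxidative stress response, spanned 0.65, -0.75 and 0.12 around a mean of 0.01 ± 0.71.

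Cebpb and Nfe2l1 were steadier. Cebpb, a factor induced in inflammation and a dimer partner of Atf4, was below 0 on all 3 arrays, at -0.47, -1.21 and -0.81 (mean -0.83 ± 0.37, limma adjusted p = 0.115). Nfe2l1, which raises proteasome genes when proteasomes are impaired, had -0.49, -1.01 and -0.87 (mean -0.79 ± 0.27, limma adjusted p = 0.0954). Neither passed over all genes with 3 arrays.

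**Figure D4:**
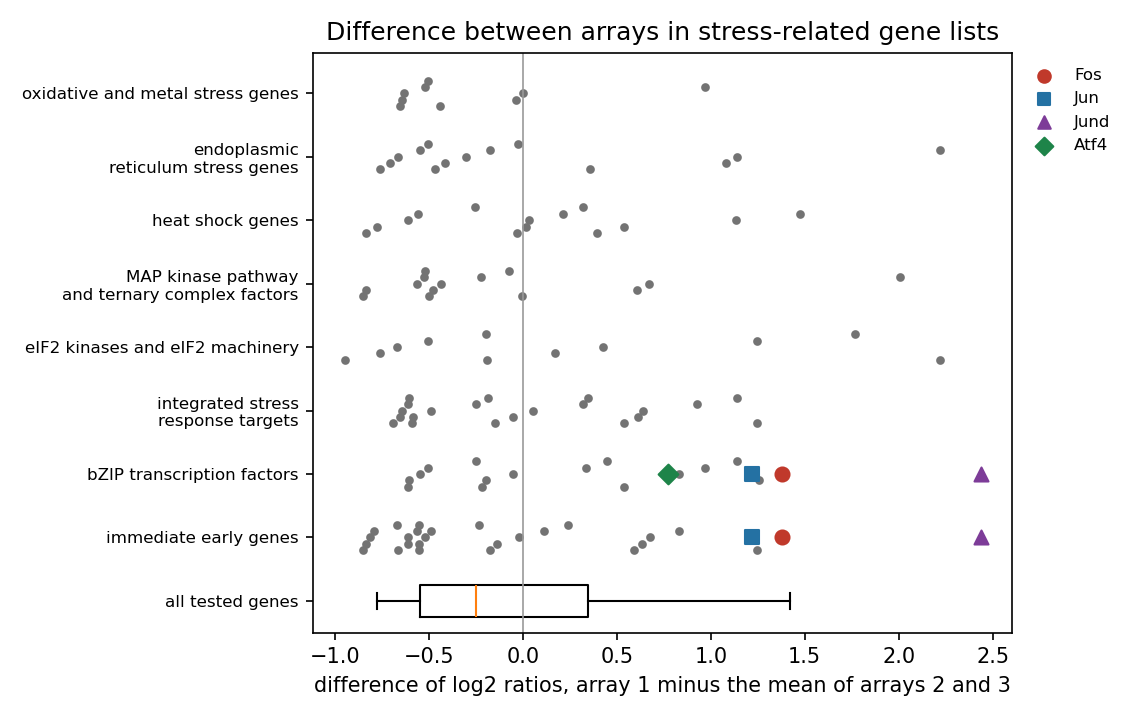
Array 1 minus the mean of arrays 2 and 3, as a difference of log2 ratios (horizontal axis), for every measured gene of 8 stress-related lists (rows, 1 point a gene) and for all tested genes (box of the middle quartiles with the median, whiskers from the 5th to the 95th percentile). Fos at 1.38, Jun at 1.22 and Jund at 2.44 are the highest of the immediate early list together with Ppp1r15a at 1.25, while most of that list lies below 0.

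Kinases and factors upstream of the early genes were examined in the MAP kinase list, of which 14 of 47 were measured. Mapk13, the delta form of p38 MAP kinase, was 3.09-fold higher in GFP+ cells (1.28, 1.86 and 1.75 on the arrays; mean 1.63 ± 0.31, limma adjusted p = 0.0105), the only one of these genes that passed. It kept this call in every limma alternative and lost it by the ordinary statistic (adjusted p = 0.266). Map3k3, a kinase that activates MAP kinase cascades, had a mean of -0.58 ± 0.35 and did not pass. Elk4, a ternary complex factor that binds beside Srf at early gene promoters and is named after its values were seen, had 0.81, -1.27 and -1.13, the same sign pattern as Fos. The list median was -0.11, and without array 1 5 (35.7%) were higher and 4 (28.6%) lower, beside 27.5% and 18.8% of all genes. With all 3 arrays, 1 of the 14 passed as higher, beside 1.38% of all genes.

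Targets of the integrated stress response, which Atf4 serves, were measured for 21 of 46 listed genes, with a median of -0.01. The sign pattern of Atf4 was found in 6 of the 21 (28.6%), beside 19% of all genes, and the opposite one in 7 (33.3%), beside 31%. Vldlr, the very low density lipoprotein receptor, was 2.28-fold higher in GFP+ cells (1.62, 0.76 and 1.19; mean 1.19 ± 0.43, limma adjusted p = 0.0438) and was the only one that passed. The call was lost after median centring (limma adjusted p = 0.0639), without array 3 (0.0987) and by the ordinary statistic (0.389). With all 3 arrays, 1 of the 21 was thus higher, beside 1.38% of all genes. Asns, Trib3 and Chac1, standard targets of Atf4, were on the array without a value. Among the tRNA synthetases, named after their values were seen, Sars had 0.38, -0.22 and -0.24 and Nars -0.26, 0.31 and 0.34, opposite in sign on every array.

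The kinases and factors around eIF2 gave 11 measured genes of 20, and 0 passed in limma (0 at an unadjusted p below 0.05; 1 higher by the ordinary statistic). Dnajc3 (p58IPK), an inhibitor of the eIF2 kinases, was spread widely, with log2 ratios of 0.92, -1.94 and -0.65. Ppp1cc, a catalytic subunit of the phosphatase that Ppp1r15a directs, had 0.67, -1.05 and -1.14. These 2 genes, with Eif2ak1 and Ppp1r15a, make 4 of the 11 (36.4%) that had the sign pattern of Fos, Jun, Jund and Atf4, beside 19% of all genes. The list median was -0.17. The 1 gene higher by the ordinary statistic before adjustment is 9.09% of the 11, beside 7.25% of all genes. In other lists the sign pattern was held by 2 of 14 MAP kinase genes (14.3%) and 4 of 14 heat shock genes (28.6%). It was held by 3 of 14 genes of endoplasmic reticulum stress (21.4%) and 0 of 9 of oxidative and metal stress. The lists share genes, and Ppp1r15a also counts among the integrated stress response targets.

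Heat shock genes, which are induced by unfolded protein and by dissociation, differed among themselves. Of 14 measured members of 32, Hspb1, a small heat shock protein, was 2.08-fold higher in GFP+ cells (1.32, 0.90 and 0.94; mean 1.05 ± 0.23, limma adjusted p = 0.0366). It was above 0 on every array, unlike Fos and Jun, and its call was lost without array 3 (limma adjusted p = 0.172) and by the ordinary statistic (0.281). Dnaja2, a cochaperone of the HSP70 family, had 0.47, -1.33 and -0.68, while the mitochondrial chaperonin Hspd1 was below 0 on all 3 arrays (-0.38 ± 0.32). The list median was 0.05, and 1 of the 14 genes was higher and 0 lower, beside 1.38% and 1.4% of all genes. Hspa1a, the inducible HSP70 gene, had a value on array 3 alone (-0.70).

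Genes of endoplasmic reticulum stress had a median of -0.35 over 14 measured of 26, and 0 passed in limma (0 higher and 4 lower at an unadjusted p below 0.05; 0 and 1 by the ordinary statistic). The 4 lower genes are 28.6% of the 14, beside 6.41% of all genes before adjustment. Without array 1, 3 (21.4%) were higher and 7 (50%) lower in limma after adjustment, beside 27.5% and 18.8% of all genes. Hspa5 (BiP), the main chaperone of that compartment, was nearly the same on each array, at -0.79, -0.75 and -0.78 (mean -0.77 ± 0.02, limma adjusted p = 0.0637). The disulfide isomerase Pdia3 had -0.63 ± 0.27. Of 9 measured genes of oxidative and metal stress, 0 passed (1 higher and 1 lower unadjusted; 1 and 0 by the ordinary statistic), among them the metallothionein Mt1 (0.43 ± 0.03) and the ferritin chains Ftl1 (-0.68 ± 0.39) and Fth1 (-0.18 ± 0.29). Hspa5 and Mt1 thus gave nearly the same ratio on arrays 1, 2 and 3 where Fos and Jun did not. Each unadjusted limma call of oxidative and metal stress is 11.1% of the 9 genes, beside 8.45% higher and 6.41% lower over all genes.

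Over the 8 lists together, 109 of 274 genes were measured, and Mapk13, Vldlr and Hspb1 were higher while 0 were lower (9 higher and 15 lower at an unadjusted p below 0.05; 11 and 3 by the ordinary statistic). Before adjustment in limma these are 8.26% and 13.8%, beside 8.45% and 6.41% of all genes, and by the ordinary statistic 10.1% and 2.75%, beside 7.25% and 4.78%. After adjustment in limma, 1.38% of all genes were higher and 1.4% lower. No call of the 3 genes held by the ordinary statistic after adjustment, and 1 of the 3, Mapk13, held without array 3. Without Fos, Jun, Jund and Atf4, 16 of the 105 others (15.2%) had their sign pattern, near the 19% of all genes, and 32 (30.5%) had the opposite one, near the 31%. The 4 genes were chosen with earlier results of these data known, so their shared pattern is a description.

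Cell type markers also differed between arrays. Array 1 minus the mean of arrays 2 and 3 had a median of -0.45 over 6 ureteric markers, -0.55 over 6 of cap mesenchyme, -0.52 over 5 of stroma, -0.35 over 7 of macrophages and leukocytes and -0.08 over 4 of erythroid cells. In endothelium 7 of 8 markers were below 0 and the median was -0.49. Ramp2, a subunit of the adrenomedullin receptor in that list, was the exception, with 0.10, -1.69 and -1.29, values near those of Fos; it is named after its values were seen. Over the 36 markers the difference ran from -1.07 to 1.59, with 7 above 0, beside a median of -0.25 over all tested genes. Ramp2 was the 1 marker with a difference as high as that of Atf4.

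**Figure D5:**
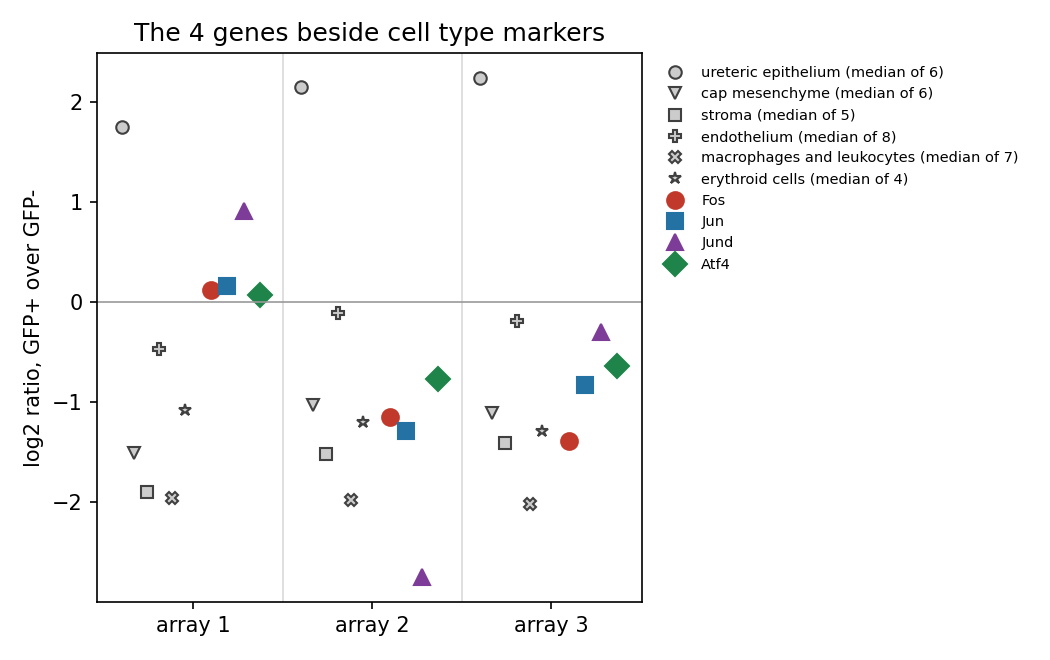
Log2 ratio of GFP+ over GFP- (vertical axis) on arrays 1, 2 and 3 for Fos, Jun, Jund and Atf4 in colour and for the medians of 6 marker lists in grey, with the number of measured markers in the key. The median of the macrophage and leukocyte markers lies near -2 on each array, from -1.95 to -2.02. Single markers of that list moved, with array 1 minus the mean of arrays 2 and 3 from -1.01 to 0.46. The 4 genes, each shown singly, go from above 0 on array 1 to below 0 on arrays 2 and 3.

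The genes nearest to each of the 4 were found by Euclidean distance over the 3 log2 ratios, among all 3915. Nearest to Fos were Ctsb (distance 0.21), a lysosomal cathepsin, Pitrm1 (0.35), a mitochondrial protease, and Bmpr2 (0.35), a receptor for bone morphogenetic proteins. Jun had Ccnl1 (0.08), a cyclin of RNA processing, Mast2 (0.12) and Ddit3 (0.15). Those of Atf4 were the imprinted gene Ndn (0.06), the aminopeptidase Lap3 (0.07) and Vps72 (0.12), a subunit of chromatin remodelling complexes. Jund had no neighbour as close: Parp1, the DNA damage sensor, was at 0.39, Cryba4 at 0.42 and Sorcs3 at 0.69. None of the 4 genes was among the nearest 3 of another.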

How the data were processed

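RNA of GFP+ and GFP- cells was compared directly on 3 arrays of the Mouse Compugen 22K oligo design, read with Imagene 5.5, per the labels. The authors deposited log2 ratios after a Lowess fit of log ratio on log intensity with 20% of the data at each point, raising control values below 10 to 10, per the labels; the filter named in the table titles is not described there. The base was settled from the values: 2 to the power of the deposited log2 value was whole in thousandths, within 0.01, for 99.97% of values, against 2.37% for base e. No intensities were used. Of 22702 features, 17252 had 1 gene symbol, and 16566 of these were updated by gene identifier to RefSeq (GRCm38.p6). Genes are means of their probes with values on all 3 arrays.

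For each of 3915 genes, limma 3.58.1 (R 4.3.3) tested whether the mean log2 ratio differs from 0 (two-sided), with Benjamini-Hochberg adjustment over all genes and a threshold of 0.05. In 20 simulated runs with 200 of 3915 genes changed, on independent arrays, it recovered 55.9% of changes of log2 1 and 96.9% of log2 2, and 3.64% of calls were false. The simulated arrays were alike, with the same change on each. The real ones were not, with r of 0.883 between arrays 2 and 3 and 0.0800 between arrays 1 and 2. These rates therefore need not hold for the real arrays. Named are the 4 genes, genes of the 8 pathway lists that passed, the 5 immediate early and 5 bZIP genes of largest absolute mean and the 3 of largest SD, the 3 of largest absolute mean in the other lists, and the 3 nearest genes; any other was picked with its values in view. The members, lists and motifs were chosen with earlier results of these data known. Alternatives were other array scalings, array weights (estimated gene by gene, because the default estimate stopped before convergence), other gene filters, a probe-level fit, an ordinary statistic, arrays left out and arrays 2 and 3 averaged.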

Additional observations from a re-analysis of the deposited data

How the results depend on the processing

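Means of the 4 genes were negative under all 8 alternatives that kept or averaged the 3 arrays: -1.29 to -0.58 for Fos, -0.92 to -0.45 for Jun, -0.90 to -0.31 for Jund and -0.66 to -0.32 for Atf4. Under the wider gene filter, the ordinary statistic and the probe-level fit these means could not change. Each gene has 1 probe with values on all 3 arrays. Fos, Jun and Atf4 passed under 1 of the 8, array weights, which gave array 1 a weight of 0.150 against 1.55 and 4.30. There limma gave Fos -1.29 (adjusted p = 1.25e-05), Jun -0.92 (0.000153), Atf4 -0.66 (0.000277) and Jund no call (0.0504). Called genes were then 33.4% of all as higher and 22% as lower. Under these weights 8 immediate early genes were higher and 7 lower, 1 and 9 bZIP factors, and 32 and 30 genes of the 8 lists together, against 0 and 0, 0 and 0, and 3 and 0. Leaving out each array in turn gave means of -1.27 to -0.52 for Fos, -1.06 to -0.33 for Jun, -1.53 to 0.30 for Jund and -0.70 to -0.29 for Atf4. Jund without array 2 was the positive value. Counts then ran from 0 to 7 higher and 0 to 6 lower immediate early genes, 0 to 1 and 0 to 9 bZIP factors, and 1 to 29 and 0 to 28 over the 8 lists, highest without array 1. Without array 1, 27.5% of all genes were higher and 18.8% lower. These shares were 1.25% and 1.79% without array 2, and 0.587% and 1.3% without array 3. The lists together had 1 lower gene after centring or quantile normalization and 0 higher by the ordinary statistic. Over all genes, 1.63% were lower after centring and 2.15% after quantile normalization, and 0.0255% were higher by the ordinary statistic. The cause of the changes between settings was not tested. No paired analysis was possible because the arrays form 1 group, with no other group to pair by number; each log2 ratio already sets both fractions on its array against each other. Without intensities, how far background limits each ratio is unknown.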

Other observations

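The 5 genes of widest spread over the arrays were Parp1 (SD 1.93), Jund (1.86), Cryba4 (1.72), Sorcs3 (1.51) and Krt16 (1.49), and all 5 had their lowest ratio on array 2 and their highest on array 1. Parp1 had log2 ratios of 0.73, -3.05 and -0.48, Cryba4 0.62, -2.77 and -0.60, Sorcs3 0.94, -2.07 and -0.46, and Krt16, an inducible keratin of stressed epidermis, 0.12, -2.83 and -0.98. Klf2, an immediate early factor of endothelium that had no value on array 2 and was not tested, changed sign between array 1 (0.94) and array 3 (-0.99). These genes are named after their values were seen.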
